A study of Mus musculus with 4 samples.

Results

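Genes that tell the dentate gyrus apart from the CA fields of the hippocampus were followed in arrays of dentate gyrus RNA. They are 5 genes of dentate granule or mossy cells (Prox1, Calb1, Calb2, Neurod1 and Neurod2) and 5 genes of the CA fields (Nnat, Wfs1, Dkk3, Pcp4 and Man1a). Every probe set that the array annotation assigns to exactly 1 gene, that gene being on this list, was taken, which gave 11 of the 12422 probe sets that are not controls. Man1a had 2 probe sets and each other gene had 1. The 4 samples were total RNA from the dentate gyrus of young male C57BL/6J mice that the experimenter had only handled, and all 4 belong to this control group. The samples differ in the hour at which RNA was taken, 1, 2, 4 or 6 h, counted from the final shock given to other mice that are not analysed here. With 1 array for each hour, values at an hour have no replicate error, any SD runs over the 4 arrays, and array and hour cannot be told apart. The labels do not give the number of mice behind an RNA sample or say whether mice were pooled.

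The hippocampal circuit runs from granule cells of the dentate gyrus, through their mossy fibre axons, to mossy cells of the hilus and pyramidal cells of CA3, and on to CA1. Prox1 is a homeodomain transcription factor that sets and maintains granule cell identity, and calbindin, the product of Calb1, is abundant in mature granule cells. The CA fields are defined by other gene programs, such as strong Wfs1 expression in CA1 pyramidal cells. A dissected dentate gyrus can carry hilus and neighbouring CA tissue, and some of the genes are shared: Calb1 is also made in CA1, and Pcp4 in granule cells as well as in CA2.

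The trimmed mean intensity was 500.3 in each of the 4 arrays, while the median was 169 at 6 h and 182 to 184 in the other arrays. The 1 h array stood apart in the control transcript Gapdh, whose 3' to 5' intensity ratio was 4.88 at 1 h and 1.13, 1.33 and 1.24 at 2, 4 and 6 h. That of beta-actin was 2.51 at 1 h and 1.83, 2.20 and 1.97 at 2, 4 and 6 h. Slopes, pair distances and the balance of the fields are given with and without the 1 h array. The part of these ratios in the results was not tested, and the precision of every value is limited by the number of arrays. Intensities of different probe sets do not rank transcript levels, so each gene is compared only with itself.

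Among the dentate genes, Prox1, Calb2 and Neurod2 were dimmer at 1 h than at any later hour, while Calb1 spanned 1.17-fold over the arrays and Neurod1 1.44-fold. The test of a linear trend over the hours, described further on, called none of these genes. Differences between single hours have no test. Prox1 had intensities of 71.6, 278, 155 and 232 at 1, 2, 4 and 6 h, a mean of 184 ± 90.6 (SD, n = 4). Its 1 h value was 3.01-fold lower than the mean of the other 3 arrays (difference -1.59 on the log2 scale). From low to high its hours ran 1, 4, 6 and 2, and the 3 later arrays themselves spanned 1.79-fold. Every fold against the mean of other arrays uses the mean of their log2 intensities, whereas a mean printed with an SD is of intensities. In bulk RNA, fewer cells of a type and less transcript per cell cannot be told apart.

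Calb2 encodes calretinin, a calcium-binding protein of mouse mossy cells, of immature granule cells and of some interneurons. It had intensities of 663, 1265, 1229 and 1427 at 1, 2, 4 and 6 h. Only the 1 h array was low, at 1.97-fold below the mean of the other 3, whose values averaged 1307 ± 105 (SD, n = 3). Calb1 had intensities of 2033, 2052, 2323 and 2375 at the 4 hours, a mean of 2196 ± 178 (SD, n = 4). The highest of its 4 values was 1.17-fold above the lowest, and the 1 h and 2 h values lay nearly level. Both genes encode calcium-binding proteins of hippocampal neurons, and they differed in how far the 1 h array departed from the rest.

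Neurod1 and Neurod2 encode basic helix-loop-helix transcription factors, the first needed for the differentiation and survival of granule neurons and the second kept on in many mature excitatory neurons. Neurod1 had intensities of 418, 470, 326 and 353 at 1, 2, 4 and 6 h, a mean of 392 ± 64.9 (SD, n = 4). Its 1 h value lay within the range of the later arrays, and the 4 h array was the lowest. Neurod2 had intensities of 1193, 1857, 1673 and 1920 at 1, 2, 4 and 6 h, a mean of 1661 ± 329 (SD, n = 4). Its 1 h array was the lowest, 1.52-fold below the mean of the others, and the later 3 arrays averaged 1817 ± 128 (SD, n = 3).

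Of the CA field genes, Nnat and Dkk3 were also dim at 1 h, whereas Wfs1 and the 2 Man1a probe sets were not. Nnat encodes neuronatin, a small membrane protein of the endoplasmic reticulum made from an imprinted gene. It had intensities of 713, 2627, 2062 and 2477 at 1, 2, 4 and 6 h. The 1 h array was 3.33-fold below the mean of the other 3, whose values averaged 2389 ± 293 (SD, n = 3). Its probe set, 97520_s_at, is of a kind that can share sequence with related transcripts, which makes its value less certain. Dkk3, a secreted protein of the Dickkopf family, had intensities of 899, 2144, 1786 and 1578 at 1, 2, 4 and 6 h. It was lowest at 1 h, by 2.03-fold against the mean of the others, and highest at 2 h, with lower values at 4 and 6 h.

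Wfs1 encodes wolframin, a membrane protein of the endoplasmic reticulum that is strong in CA1. It had intensities of 790, 705, 1019 and 939 at 1, 2, 4 and 6 h, a mean of 863 ± 142 (SD, n = 4). The 2 h array was the lowest and the 4 h array the highest, so the 1 h array did not stand out. Man1a encodes a Golgi mannosidase that trims N-linked sugar chains. The first of its probe sets, 160579_at, had intensities of 322, 269, 228 and 216 at 1, 2, 4 and 6 h. The second, 160580_at, had intensities of 119, 116, 149 and 106 at those hours. Values of the first stepped down from hour to hour, while the second was highest at 4 h, so the 2 probe sets of this gene gave different orders.

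Pcp4 encodes a small protein that binds calmodulin and marks CA2 as well as granule cells. Its only probe set under the selection rule, 162300_at, had intensities of 150, 34.5, 20.1 and 10 at 1, 2, 4 and 6 h. The 6 h value lay under the floor of 16.4, the 10th percentile of all non-control values, to which lower values were set. The mean of this probe set lay below the filter for tests, so it was not tested. Folds from its later hours rest on values near or under the floor. It was the only 1 of the 11 probe sets left out by that filter. A separate probe set, 160899_at, is annotated with both Igsf5 and Pcp4 and was left out by the rule. It was bright, with intensities of 6004, 4282, 5044 and 4635 at 1, 2, 4 and 6 h, and its value is assigned to neither gene. Both were highest at 1 h, but the ambiguous one had a 6 h value 0.772 times that at 1 h.

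**Figure D1:**
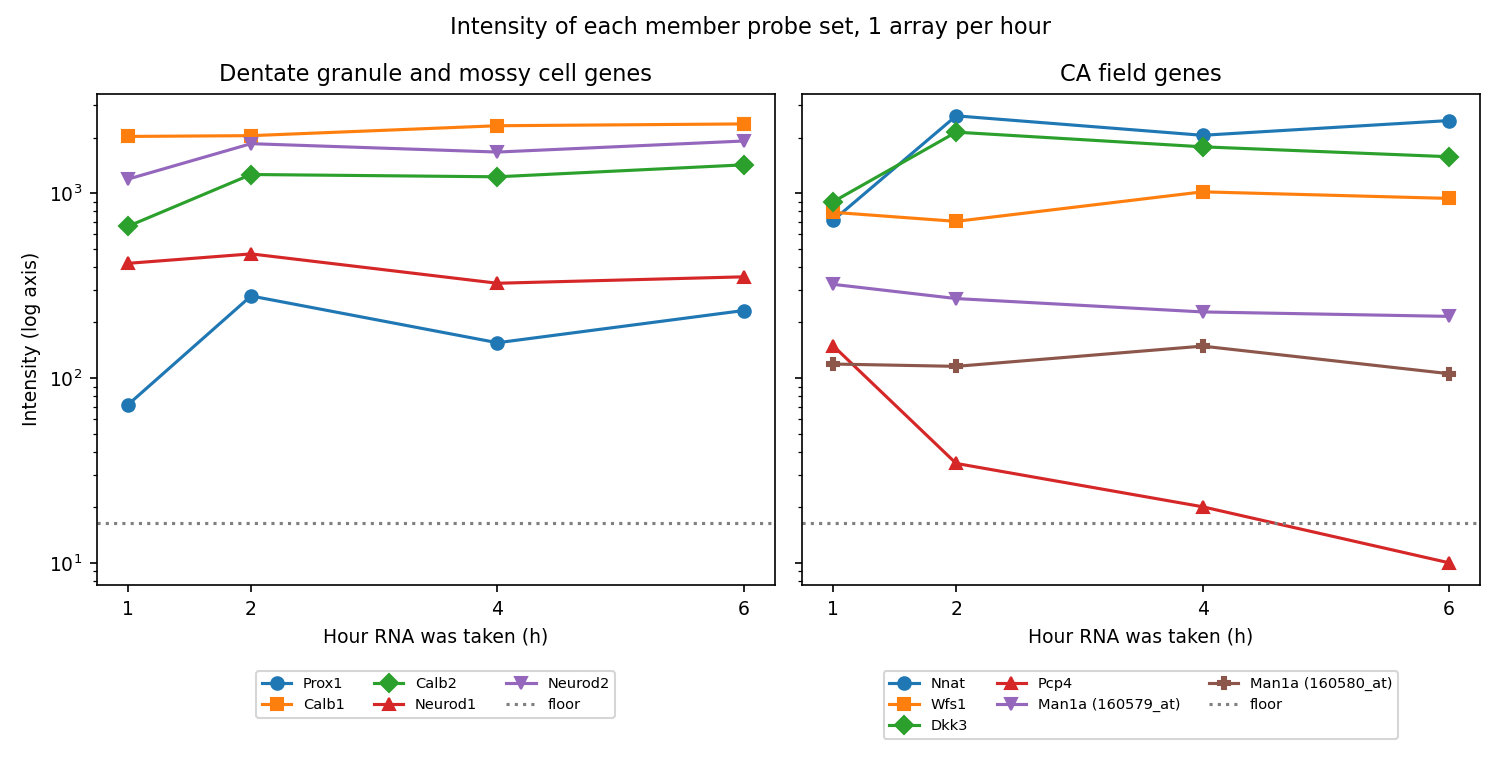
Intensity on a log axis against the hour RNA was taken, with 1 point per array, the dentate genes on the left and the CA field genes on the right. Prox1, Calb2, Neurod2, Nnat and Dkk3 are lower at 1 h than at 2, 4 and 6 h, Calb1 spans 1.17-fold, and Pcp4 reaches the floor of 16.4 (dotted line).

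The low values at 1 h came from both sides of the list. The 1 h array was the lowest of the 4 for 6 of the 10 tested member probe sets, 4 of 5 dentate (Prox1, Calb1, Calb2 and Neurod2) and 2 of 5 CA (Nnat and Dkk3). Over all 7453 tested probe sets that share was 30.4%. It was the highest array for 1 member, Man1a on 160579_at, against 35.4% of all tested probe sets. At least 2-fold below the mean of the other 3 arrays were Prox1, Nnat and Dkk3, 3 of 10, where 5.29% of all probe sets were, and 0 of 10 were at least 2-fold above it, against 1.8%. Dkk3, at 2.03-fold, lay just past that limit, and Calb2, at 1.97-fold, just short of it. The count was 4 after scaling to a common median and 2 after quantile normalization. The median difference of the 1 h array from the others was -0.38 over the members and 0.05 over all tested probe sets, on the log2 scale. With 1 array per hour these counts have no test. They also leave out Pcp4, under the filter, which was far brighter at 1 h (150) than at 2, 4 and 6 h (34.5, 20.1 and 10).

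Counted from the 1 h array, Prox1, Nnat and Dkk3 were at least 2-fold higher at 2 h (3 of 10 members, 6.35% of all tested probe sets). Prox1 and Nnat were so at 4 h (2 of 10, against 5.68%), and Prox1, Nnat and Calb2 at 6 h (3 of 10, against 5.69%). No tested member was 2-fold lower than at 1 h, while 3.45%, 2.74% and 3.65% of all tested probe sets were at 2, 4 and 6 h. Pcp4, which the filter left out, was more than 2-fold lower than at 1 h at each of these hours. These 3 comparisons share the 1 h array. The 6 h and 2 h arrays, which leave it out, differed by 2-fold for 0 of 10 members in either direction, where 1.66% of all tested probe sets were higher and 2.4% lower at 6 h. Prox1 at 6 h was 0.834 times its 2 h value, and Nnat 0.943 times. Prox1 at 2 h was the only tested member 2-fold above its other 3 arrays, by the mean of their log2 intensities, against 1.81% of all tested probe sets. It was not so when the 1 h array was left out of that mean. No tested member was 2-fold below the mean of the others at 2 h (1.58% of all), nor 2-fold away at 4 h (1.42% of all above and 1.4% below) or at 6 h (0.912% above and 1.85% below).

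**Figure D2:**
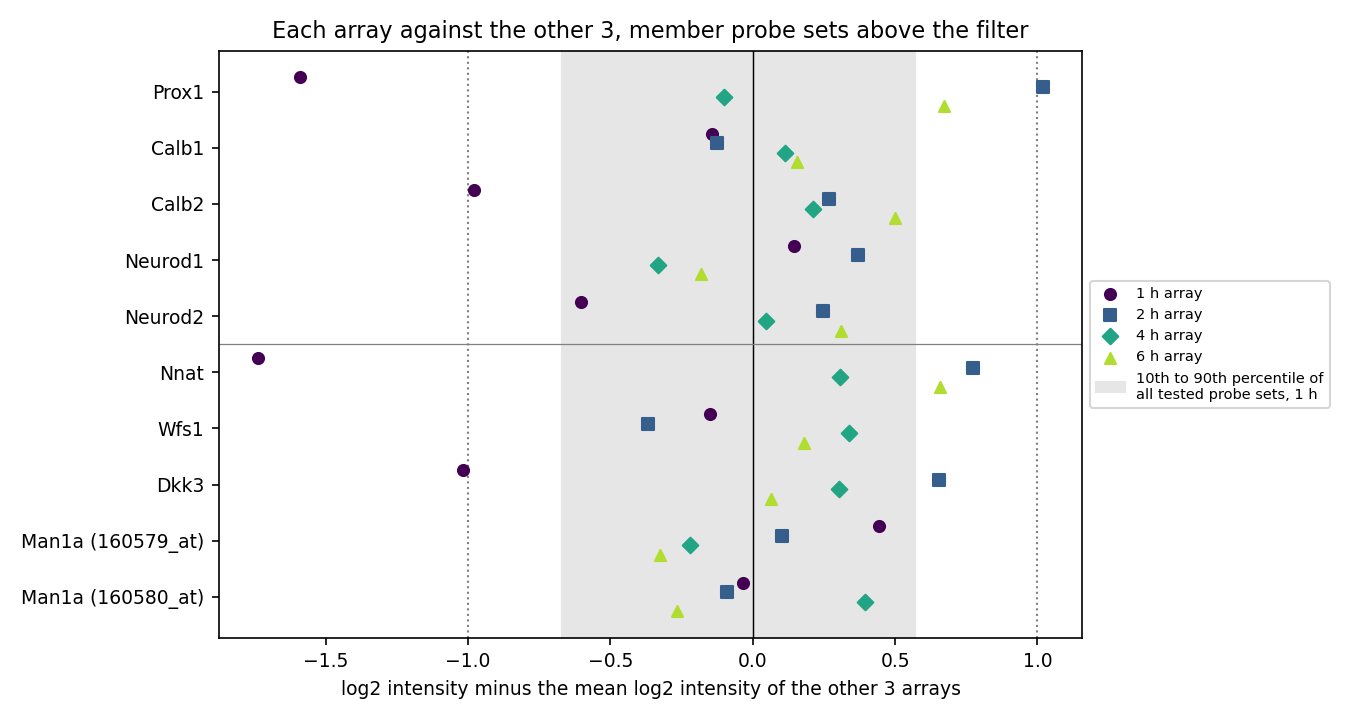
The log2 intensity of each array minus the mean log2 intensity of the other 3 arrays, for the 10 member probe sets above the filter, with dentate genes above the grey line and CA field genes below it. Dotted lines mark 2-fold and the grey band the 10th to 90th percentile of all 7453 tested probe sets in the 1 h array (-0.67 to 0.57), and the 1 h points of Prox1, Calb2, Nnat and Dkk3 lie left of that band.

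Promoters of 3 members with their lowest value at 1 h are shown because Neurod1 and Neurod2 encode factors that bind E-boxes, and the genes differ in whether the letters of such a site are present. They are the 250 bases before the RefSeq start in build GRCm38.p6, written 5' to 3' on the gene's strand. Prox1 lies at chr1:190170828-190171077 on the minus strand, Neurod2 at chr11:98329646-98329895 on the minus strand, and Nnat at chr2:157559828-157560077 on the plus strand. Capitals mark the searched E-box, CAGATG or its reverse complement CATCTG.
Prox1: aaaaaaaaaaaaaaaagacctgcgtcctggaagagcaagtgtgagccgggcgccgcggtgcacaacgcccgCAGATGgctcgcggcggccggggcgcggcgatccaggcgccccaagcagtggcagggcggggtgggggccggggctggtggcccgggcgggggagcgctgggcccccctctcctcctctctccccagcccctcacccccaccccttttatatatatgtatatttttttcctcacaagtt
Neurod2: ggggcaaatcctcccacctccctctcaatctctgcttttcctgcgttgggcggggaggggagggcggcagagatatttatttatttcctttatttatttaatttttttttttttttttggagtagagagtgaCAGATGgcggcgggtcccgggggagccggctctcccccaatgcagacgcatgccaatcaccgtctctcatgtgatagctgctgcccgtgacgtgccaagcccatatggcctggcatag
Nnat: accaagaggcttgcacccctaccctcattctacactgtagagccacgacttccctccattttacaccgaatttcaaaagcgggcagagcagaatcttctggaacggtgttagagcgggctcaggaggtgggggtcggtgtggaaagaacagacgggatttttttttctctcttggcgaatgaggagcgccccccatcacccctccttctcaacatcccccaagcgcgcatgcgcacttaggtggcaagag

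The Prox1 window held 1 match, which began 179 bases before the start, and that of Neurod2 held 1, which began 118 bases before it. The Nnat window held 0, and the window of a second RefSeq start of Prox1 also held 0. Of the 7 members with a promoter entry, Wfs1 was the other one with a match, and Neurod1, Pcp4 and Man1a had none, while Calb1, Calb2 and Dkk3 were not in the table. Among 32851 promoter windows of this length, 14.4% held a match on either strand. Whether the motif has any bearing on the values at 1 h was not tested. A match is a run of letters and was not measured as a binding site.

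A linear trend over the hours was fitted with limma on log2 intensity across all 7453 probe sets above the filter, with Benjamini-Hochberg adjustment at 0.05. It called 0 of the 10 tested members, where it called 1 of all probe sets (0.0134%), that of Ttr, a choroid plexus gene. At an unadjusted p under 0.05 there was 1 member, Calb2, and 328 of all probe sets. Calb2 had a slope of 0.17 ± 0.07 log2 units per hour (SE, adjusted p = 0.874 in limma). Its slope was 0.04 in the 3 later arrays. Nnat had the largest slope among the members, 0.25 ± 0.13 (SE), and Prox1 followed with 0.21 ± 0.16. Without the 1 h array these slopes were -0.02 and -0.07, so their sign rested on that array, as did that of Dkk3, 0.10 with it and -0.11 without it. Slopes were above 0 for 7 of 10 members (4 of 5 dentate and 3 of 5 CA), against 46.5% of all tested probe sets. Without the 1 h array they were above 0 for 4 of 10 members, against 47.7%. The negative ones were those of Neurod1, -0.08 ± 0.06 (SE), and of Man1a, -0.11 ± 0.07 on 160579_at and -0.01 ± 0.11 on 160580_at. Adjusted p-values of the members in limma ran from 0.874 to 0.988, and with 2 residual degrees of freedom a value of this kind does not show that a gene is steady.

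**Figure D3:**
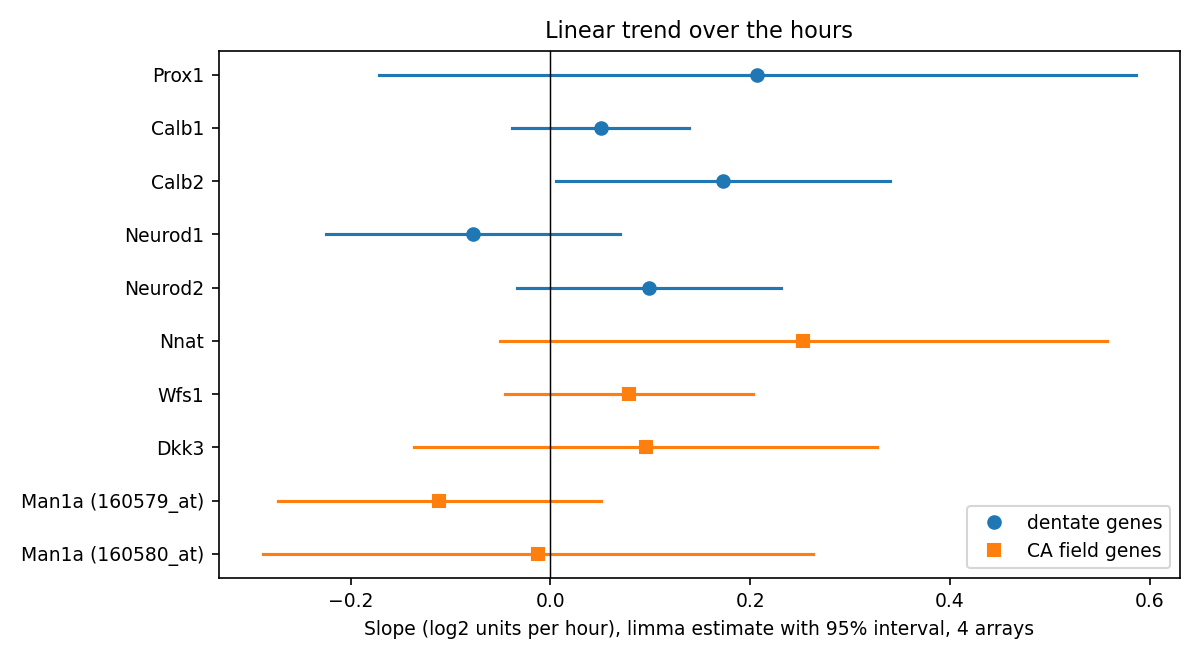
Slopes of log2 intensity on the hour for the 10 member probe sets above the filter, as the limma estimate with its unadjusted 95% interval over 4 arrays. The interval of Calb2 (0.01 to 0.34) lies above 0, and those of the other 9 probe sets include it.

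The balance between the sides was described by the median log2 deviation of the dentate members from their own means, minus that of the CA members. The dentate median was -0.45, 0.20, 0.03 and 0.23 at 1, 2, 4 and 6 h, and the CA median -0.11, 0.08, 0.23 and 0.05. Dentate minus CA was therefore -0.34, 0.12, -0.19 and 0.19. A gene's deviations from its own mean sum to 0 and so take both signs, and nothing is read from the signs of the balance. With the 2 Man1a probe sets averaged first, the balance was -0.01, -0.05, -0.19 and 0.14 at 1, 2, 4 and 6 h. Without the 1 h array it was -0.11, -0.09 and 0.22 at 2, 4 and 6 h. The sign at 2 h turned under both of these settings.

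The patterns of members were also set against each other. The distance used was the root mean square difference of log2 deviations over the 4 arrays, over 45 pairs of tested member probe sets that share the same arrays. The closest pair was Calb1 and Wfs1, at 0.125, a dentate and a CA gene by the list, though Calb1 is also made in CA1. Neurod1 and Man1a (160579_at) were 0.166 apart and Calb2 and Neurod2 0.169. Prox1 and Nnat were next at 0.187, and both had a low 1 h array. Of these 4 closest pairs, 3 joined a dentate gene with a CA gene, as did 25 of all 45 pairs (55.6%). The most distant pair was Nnat and Man1a (160579_at), at 0.952. The 2 probe sets of Man1a were 0.301 apart. Without the 1 h array, 1 of the 4 closest pairs crossed the fields, and the distances were 0.144 for Calb1 and Wfs1, 0.203 for Prox1 and Nnat, and 0.144 for Nnat and Man1a (160579_at). The order of the pairs thus changed without the 1 h array.

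Outside the list, the genes with patterns closest to Prox1 among 6733 probe sets were Atp8a1 (0.0823), Hacd3 (0.107) and Cbl (0.115). Atp8a1, a flippase that moves phospholipids across membranes, had intensities of 215, 741, 445 and 603 at 1, 2, 4 and 6 h. Closest to Nnat were Ilvbl (0.0370), Sec23a (0.0411) and Btd (0.0547). Sec23a, a coat protein of vesicles leaving the endoplasmic reticulum, had intensities of 109, 425, 335 and 409. All 6 were lowest at 1 h, which follows from their choice by likeness to Prox1 and Nnat over the same arrays. Without the 1 h array none of the 6 was among the 3 closest, and Slc12a2 was closest to Prox1 (0.00978) and Cd82 to Nnat (0.000846). The distance of a typical probe set was 0.788 from Prox1 and 0.799 from Nnat, and 4 arrays leave much room for likeness.

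Other markers of the hippocampal fields gave 0 calls among 43 tested probe sets in the limma trend test. An unadjusted p under 0.05 was found for 3 of the 43 (Htr1a, Tyro3 and Stmn1), beside 328 of all 7453 tested probe sets. The counts at 1 h that follow stand beside 5.29% of all tested probe sets 2-fold lower and 1.8% 2-fold higher in that array, and each rests on few probe sets. Of 14 tested probe sets of further dentate granule genes, 1 was at least 2-fold lower at 1 h and 0 were higher, with a median difference of -0.09 on the log2 scale. The brightest were Bdnf, a neurotrophin of granule cells, with intensities of 4481, 2996, 3761 and 3560 at 1, 2, 4 and 6 h, and Zbtb20, a transcription factor of hippocampal neurons, with 2195, 2084, 1597 and 1852. Both were highest at 1 h. The 1 low gene was Gabrd, the delta subunit of GABA-A receptors of granule cells, with 20.8, 190, 217 and 194. Its 1 h value lay near the floor of 16.4, so the size of that difference is uncertain. Mossy cell genes had 1 of 4 tested probe sets 2-fold lower at 1 h, that of the AMPA receptor subunit gene Gria3 (171, 474, 388 and 362), which other neurons also express. Drd2, the dopamine D2 receptor gene used as a mossy cell marker, had intensities of 148, 156, 195 and 165. Immature granule cell genes had 0 of 7 tested probe sets 2-fold away at 1 h, and Stmn1, which destabilises microtubules, had 2665, 4026, 4865 and 4956. Tubb3, a neuronal tubulin, had 6613, 8852, 8048 and 9034. Its probe set, 160462_f_at, can, like that of Nnat, share sequence with related transcripts. Eomes, a factor of intermediate progenitors that was picked out after its values were seen, lay under the floor in all 4 arrays.

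Genes of single CA fields lay on either side at 1 h. Of 5 tested CA1 probe sets, 1 was 2-fold higher at 1 h, that of the serotonin receptor gene Htr1a, with intensities of 212, 187, 110 and 51.0 at 1, 2, 4 and 6 h. The brightest CA1 probe sets were those of Cck, a neuropeptide gene also used by interneurons (11909, 14058, 13544 and 11068), and of Ccn3, a secreted matrix protein (952, 513, 615 and 577). Of 3 tested CA2 probe sets, 1 was 2-fold higher, that of the matrix proteoglycan gene Vcan (340, 94.8, 183 and 90.4). Rgs14, a regulator of G protein signalling that marks CA2, had 3951, 2956, 3782 and 3013. Of 8 tested CA3 probe sets, 1 was 2-fold lower, that of the receptor gene Mas1 (477, 1171, 994 and 842), and Bok, a BCL2 family gene of CA3, had 1330, 1765, 901 and 1184. Chgb, a secretogranin, had 20291, 15916, 14753 and 14238 and was highest at 1 h, on 92841_f_at, which can likewise share sequence with related transcripts. Among genes of pyramidal cells in general, Nptx1, a secreted synaptic pentraxin, was the 1 of 3 at least 2-fold lower at 1 h, with 1346, 4261, 2481 and 2716. Crym, a thyroid hormone-binding protein that is also on the CA3 list, had intensities of 694, 1294, 1100 and 1429 and was likewise lowest at 1 h. The CA lists had medians of -0.11 (CA1), 0.29 (CA2), 0.06 (CA3) and -0.87 (pyramidal in general) at 1 h, beside 0.05 over all tested probe sets.

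**Figure D4:**
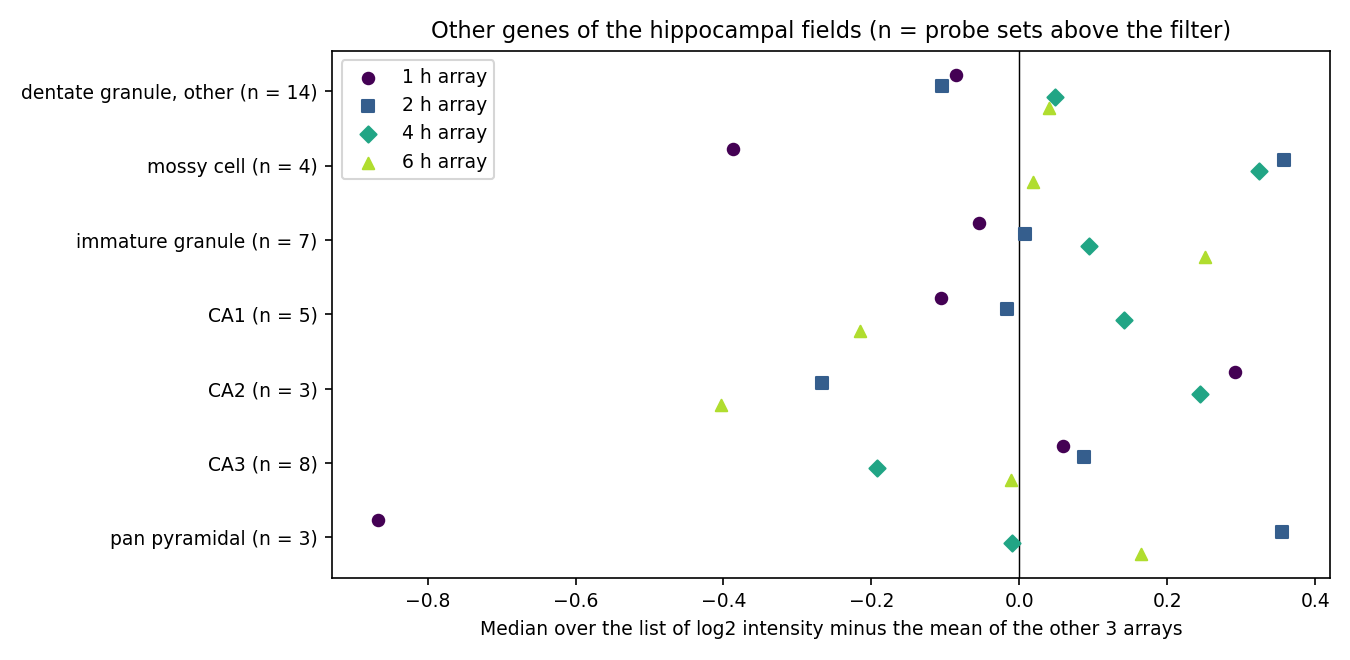
Median over each list of the log2 intensity of an array minus the mean of the other 3 arrays, for genes of the hippocampal fields other than the members, with n the number of tested probe sets. The 1 h array is at -0.87 for the 3 pyramidal probe sets and at -0.09 for the 14 dentate granule probe sets.

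Intensities of markers of other cell types were summed in each array, with no detection calls, and their part in the results was not tested. The brightest probe sets weigh most in such sums, as those of Igf2 and Ttr did among choroid plexus genes. Summed intensities ran from 15170 to 15757 over the 4 arrays for 10 interneuron probe sets and from 22139 to 24774 for 8 of astrocytes. Those of oligodendrocytes (10 probe sets) were 13032, 20100, 13290 and 13673 at 1, 2, 4 and 6 h, and those of microglia (8 probe sets) ran from 8205 to 9150. Endothelial probe sets (7) summed to 1605, 1387, 1343 and 948, choroid plexus ones (6) to 2168, 3529, 4917 and 6778, and thalamic and striatal ones (8) to 4646, 4694, 5392 and 5540. At least 2-fold lower at 1 h were 3 of 9 tested oligodendrocyte, 1 of 8 astrocyte and 2 of 4 choroid plexus probe sets, and 1 of 5 endothelial probe sets was 2-fold higher, where 5.29% of all tested probe sets were lower and 1.8% higher. No listed probe set of these 7 types was under the floor in all 4 arrays.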

How the data were processed

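The authors deposited intensity values on a linear scale, 1 row per probe set and 1 column per array, and their making (software, scaling, detection) was not given in the sources used here. Gene names come from the array's platform annotation, with symbols updated by Entrez identifier. Values were used as deposited, since the trimmed means (2% cut from each end) differed by less than 5%. The 10th percentile of non-control values (16.4) served as a floor, log2 was taken, and probe sets with a mean log2 at or above the 40th percentile (6.66) were tested, 7453 in all. The trend was fitted with limma 3.58.1 in R 4.3.3 (lmFit, eBayes with an intensity trend), two-sided. The code was checked on simulated data with the same noise for every probe set and slopes steeper than those of the members over the 4 arrays. That check therefore does not describe how the test behaves for the members. Differences between hours have no test. The named genes are every member, the 3 nearest patterns to Prox1 and Nnat and, of each marker list, the 2 brightest probe sets and the 1 of largest difference at 1 h. Lists of cell types outside the hippocampal fields are given as sums and counts. The members, lists and settings were chosen with earlier results of these data known. Scalings, filters, floors, variance priors and left-out arrays were tried as alternatives. Promoter sequences are from RefSeq, build GRCm38.p6, and the deposited values give no read depth.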

Additional observations from a re-analysis of the deposited data

Results flagged for a closer look

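None of the 11 member probe sets had an array set apart by the Dixon ratio, the gap to the nearest other array over the whole range. With 4 arrays this does not show that no array departed from the rest. At 1 h Prox1, Nnat and Dkk3 were still at least 2-fold below the mean of the other arrays. Of 51 values examined on the log2 scale, 5 had a ratio above the 95% critical value. Chance flags about 1 in 20, but 9 of the 51 values, those of Gabrd and Aqp4 among them, were named for their difference at 1 h, so the number of flags cannot be read against that rate. The Gapdh 3' to 5' ratio stood apart at 1 h (Dixon ratio 0.892), as did Gabrd (0.944), whose 1 h value of 20.8 lay near the floor. Also apart at 1 h were Aqp4 on 102703_s_at (0.884, intensities 217, 613, 702 and 649 at 1, 2, 4 and 6 h) and Igf2 (0.831, intensities 1501, 2876, 3282 and 3269). Sst, the somatostatin gene of interneurons, stood apart at 6 h (0.832) within a narrow range, with intensities of 4021, 4023, 4013 and 4073.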

How the results depend on the processing

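The trend called 0 members under each alternative run: both other scalings, both other filters, the other floor, the other variance prior, the log2 of the hour, and without each array in turn. The count over all probe sets, 1, was 0 with no filter and also 0 when the variance prior had no intensity trend, and ran from 0 to 1 without 1 array. Slopes turned sign for Man1a on 160580_at, to 0.0079 with arrays scaled to the same median, 0.022 with quantile normalization and 0.0012 on the log2 of the hour. Leaving out 1 array gave slopes from -0.034 to 0.118 for it, from -0.065 to 0.342 for Prox1, from -0.021 to 0.413 for Nnat and from -0.110 to 0.264 for Dkk3. The negative values of the last 3 are those without the 1 h array. At 1.5-fold in place of 2-fold, 5, 4 and 5 of 10 members were higher at 2, 4 and 6 h than at 1 h (14.1%, 13.4% and 12.1% of all tested probe sets). Against the mean of the others, 5 were lower at 1 h (11.7% of all), 3 higher at 2 h (7.08%) and 2 higher at 6 h (4.29%). With no filter, Pcp4 adds 1 to the members lower at 2, 4 and 6 h than at 1 h, lower at 6 h than at 2 h, higher at 1 h than the mean of the others, and lower than it at 4 h and at 6 h. Prox1 at 2 h was no longer 2-fold above the other arrays with the same median (0 members), nor without the 1 h array (0 members), a setting chosen after its Gapdh ratio was seen. Averaging the probe sets of a gene first moved the dentate minus CA balance at 1 h to -0.0145 and turned it at 2 h, to -0.0468. It was -0.111 at 2 h without the 1 h array. The causes of these shifts were not tested, apart from Pcp4, which enters only without the filter. The number of arrays limits all of them, and the values of Pcp4 after 1 h lie near or under the floor.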
